A study of Homo sapiens with 6 samples.

Results

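Base excision repair and single-strand break repair were followed through 9 genes, namely PARP1, XRCC1, LIG3, APTX, POLB, APEX1, TDP1, OGG1 and MUTYH. They were chosen by symbol for their role in the pathway, with earlier results of these data known, and are 9 of the 29804 gene symbols in the count table. All 9 passed the filter on low counts that left 14672 genes for testing. RNA was sequenced from 22Rv1 cells, an established human prostate carcinoma line, in 3 groups of 2 libraries, and the study asked how cells that survive repeated DNA damage differ from unexposed cells. WT cells were the untreated culture at week 0. AM (age matched) cells grew for 6 weeks with no drug. 6WP cells were given phleomycin, a radiomimetic drug that breaks DNA, at 1 µg/ml every week day of a 6 week period. All groups carried the label WT for genotype and grew in RPMI medium with serum and antibiotics, so the name WT marks the starting culture and not an allele. Each group is 1 culture history of 1 cell line, and the labels call the 2 libraries of a group biological replicates without saying how far their cultures were kept apart, so p-values measure the spread between these libraries. Week 0 and week 6 also differ in time in culture, which only the AM cells separate from phleomycin.

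In base excision repair, a DNA glycosylase removes a damaged base, an endonuclease cuts the strand at the empty site, a polymerase fills the gap and a ligase seals it. Breaks in 1 strand, including those left by radiomimetic drugs, are sensed by PARP1, whose poly(ADP-ribose) chains recruit the scaffold XRCC1 with its partner ligase and end-processing enzymes. Where more than a single base has to be replaced, the long-patch branch uses the replication proteins PCNA, FEN1 and LIG1 in place of the short-patch polymerase and ligase.

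Compared with WT cells, 0 of the 9 genes rose or fell in 6WP cells (edgeR quasi-likelihood test, Benjamini-Hochberg adjusted over all tested genes, threshold 0.05). None reached an unadjusted p under 0.05 either, where 3283 of the 14672 tested genes did. DESeq2's Wald test and edgeR's likelihood ratio test also called 0. Of all tested genes, 1.63% rose and 1.37% fell in this comparison. Compared with AM cells, PARP1, XRCC1 and TDP1 fell in 6WP cells and 0 of the 9 rose, where 9.68% of all tested genes fell and 11.7% rose. DESeq2's Wald test and the likelihood ratio test called 4 there (OGG1 added), beside 3490 and 4021 of all tested genes. Between the untreated groups, 0 of the 9 genes were called in AM against WT cells, where 7.74% of all tested genes rose and 9.93% fell. In this last comparison, 4 of the 9 had an unadjusted p under 0.05, beside 5185 of the 14672 tested genes. DESeq2's Wald test called 2 of the 9 (PARP1 and TDP1) and 3051 of all tested genes. The likelihood ratio test called 1 (TDP1) and 3587. Without 6WP replicate 1 the log2 fold change of OGG1 was -0.54 against WT. Without 6WP replicate 2, PARP1, MUTYH and POLB had -0.33, 0.72 and 0.38 against WT. Against AM, OGG1 had -1.11 and -0.37 without 6WP replicate 1 and 2, and MUTYH 0.033 and 0.66. More of the 9 genes were called in each comparison without either 6WP library, as over all tested genes. Fewer were called in 6WP against AM cells without any 1 of the WT or AM libraries, again as over all tested genes. The comparisons of 6WP with AM and of AM with WT share the AM libraries, so a high AM value enters both.

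The libraries held between 21222201 and 35311945 counts, and 3 counts, taken as the detection floor, equalled 0.0850 to 0.141 CPM (counts scaled to the library total, TMM normalized). The floor covers counting error only. Replicates correlated across genes (which are not independent replicates) with r = 0.994 for WT, 0.994 for AM and 0.982 for 6WP, and the median SD of a gene on the log2 scale was 0.0854, 0.0911 and 0.196 in the same order, so the 6WP libraries stood further apart than the others. The prostate luminal markers KRT8, KRT18, HOXB13, TMPRSS2 and FOLH1 were detected in every library, at 24.5 CPM or more. KRT8, TMPRSS2 and FOLH1 (named after their values were seen) fell in AM against WT cells, TMPRSS2 and FOLH1 rose in 6WP against AM cells, and 0 of these 5 were called in 6WP against WT cells, where KRT8 and FOLH1 had an unadjusted p under 0.05. These falls were lost without any 1 of the WT and AM libraries (adjusted p = 0.0962 to 0.223), the rise of TMPRSS2 without any 1 of them (0.0775 to 0.207) or with only the 2 groups compared, and the rise of FOLH1 without either AM library (0.0745 and 0.0751). The 8 markers of fibroblasts, endothelium and immune cells summed to between 4.68 and 6.03 CPM in every library, with CDH5, PTPRC and CD3E at 0 throughout, and 0 of the 3 that could be tested were called in any comparison, with 1 at an unadjusted p under 0.05 in each comparison with AM. Of the 14672 tested genes, 3283 had such a p in 6WP against WT, 5449 in 6WP against AM and 5185 in AM against WT. A list of 13 proliferation genes summed to 3005 and 2727 CPM in the WT libraries, 4295 and 4465 CPM in the AM libraries, and 2690 and 1604 CPM in the 6WP libraries. Of these 13 genes, 9 fell and 0 rose in 6WP against AM cells (median log2 fold change -0.92), 7 rose and 0 fell in AM against WT cells (0.61), and 1, MCM4, fell in 6WP against WT cells (-0.32). Of all tested genes, 9.68% fell in the first comparison, 7.74% rose in the second and 1.37% fell in the third. Fewer of the 13 were called in each comparison without any 1 of the WT or AM libraries, as over all tested genes. More were called in each without either 6WP library, again as over all tested genes. Library size only left 4 for AM against WT and 0 for 6WP against WT. The fit to only the 2 groups compared gave 13 and 0, beside 6620 and 96 of all genes it tested. The summed level of the proliferation list was highest in AM, like the levels of PARP1, XRCC1, TDP1 and OGG1, and lowest in 6WP replicate 2, like those of XRCC1, TDP1 and OGG1, and its part in their values was not tested. In bulk RNA, fewer cells of a state and less RNA per cell cannot be told apart.

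PARP1 (chr1:226360210-226408154 of GRCh38, minus strand), the main break sensor, was the most abundant of the 9 transcripts by count. Its level was 973 and 958 CPM in the WT libraries, 1221 and 1234 CPM in the AM libraries, and 784 and 893 CPM in the 6WP libraries. The groups did not overlap, with AM highest and 6WP lowest. PARP1 fell by 0.55 on the log2 scale in 6WP against AM cells (SE 0.11, 95% interval -0.81 to -0.29, adjusted p = 0.0149 by edgeR), a level 0.683 times that of AM. Against WT the log2 fold change was -0.20 (95% interval -0.46 to 0.056, adjusted p = 0.329). Between AM and WT it was 0.35 (95% interval 0.087 to 0.61, adjusted p = 0.0688). Each library held at least 20846 PARP1 counts. The fall against AM stayed past the threshold under 11 of 15 alternatives and lost it without AM replicate 1 (adjusted p = 0.114), AM replicate 2 (0.118) or WT replicate 1 (0.0538), and in a fit to only the 2 groups compared (0.0528). Against WT, the value passed the threshold only without 6WP replicate 2 (-0.33, adjusted p = 0.0244).

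**Figure D1:**
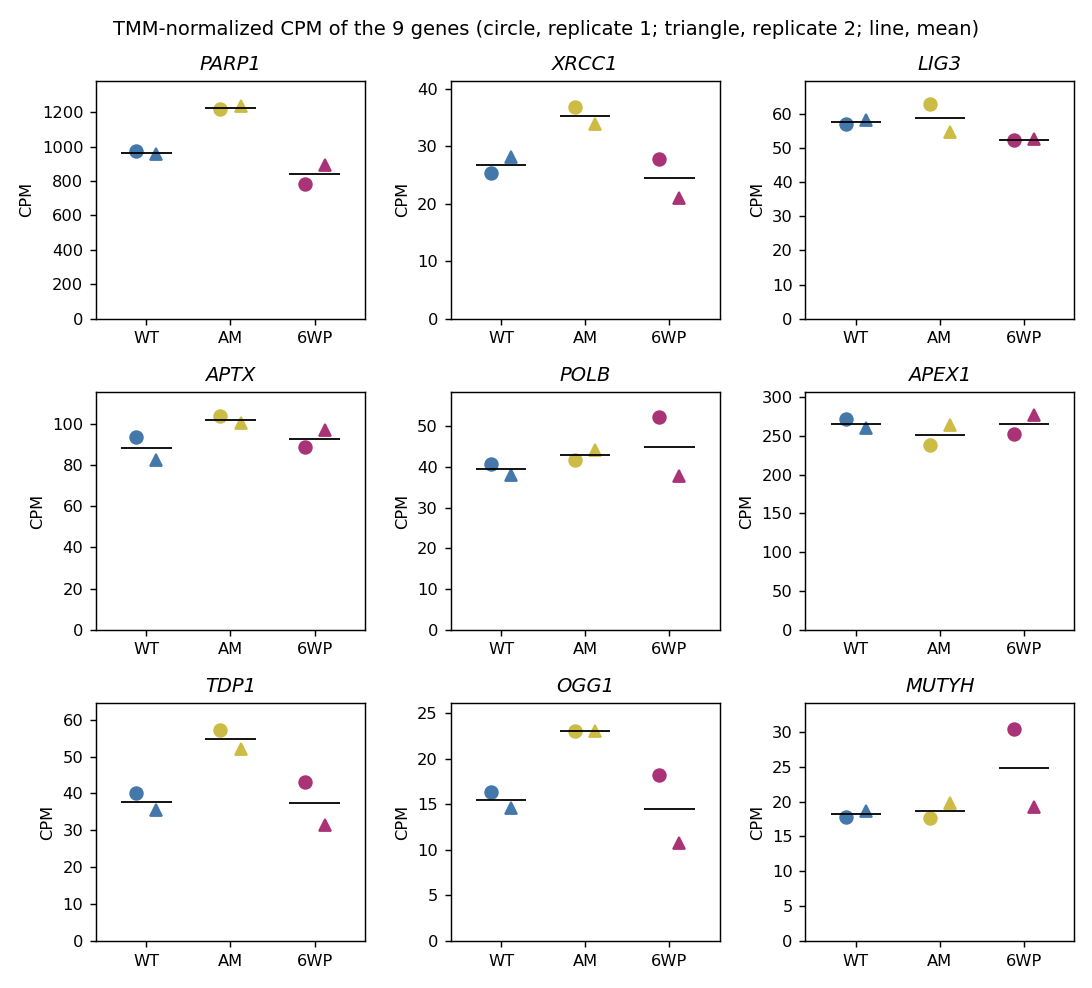
Level of each of the 9 genes in CPM (TMM normalized, linear axis from 0) in the 2 WT, 2 AM and 2 6WP libraries, with points for libraries and lines for group means. PARP1 was lowest in both 6WP libraries (784 and 893 CPM), XRCC1, TDP1 and OGG1 were highest in both AM libraries, and LIG3 and APEX1 differed little between groups.

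XRCC1 (chr19:43543311-43580473, minus strand) is the scaffold that PARP1 activity brings to breaks and that binds LIG3, POLB and APTX. Its level was 25.3 and 28.1 CPM in WT, 36.8 and 33.9 CPM in AM, and 27.8 and 20.9 CPM in 6WP libraries. Both AM libraries lay above the other 4, and the WT and 6WP libraries overlapped. XRCC1 fell by 0.53 in 6WP against AM cells (SE 0.16, 95% interval -0.90 to -0.17, adjusted p = 0.0481), just inside the threshold. Against WT its log2 fold change was -0.13 (95% interval -0.50 to 0.24, adjusted p = 0.678), and in AM against WT it was 0.40 (adjusted p = 0.114). The call against AM held under 7 of 15 alternatives. It was lost without either WT library (adjusted p = 0.101 and 0.0912) or either AM library (0.247 and 0.171), with upper quartile scaling (0.0811), with library size only (0.0810), with at least 10 counts in every library (0.0542) and with only the 2 groups compared (0.0938).

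LIG3 (chr17:34980512-35009743, plus strand), the ligase that XRCC1 stabilises, also serves mitochondrial DNA. Its level was 57.0 and 58.4 CPM in WT, 62.8 and 54.7 CPM in AM, and 52.3 and 52.7 CPM in 6WP libraries. The AM libraries spanned the WT values, and both 6WP libraries were the lowest of the 6 by a small margin. The log2 fold change was -0.14 against WT (95% interval -0.40 to 0.13, adjusted p = 0.517) and -0.16 against AM (95% interval -0.43 to 0.099, adjusted p = 0.329). Its scaffold XRCC1 had the larger fold change against AM, but the difference between the 2 genes was not tested.

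Among the enzymes that clean blocked DNA ends, TDP1 (chr14:89954939-90044764, plus strand) removes topoisomerase I remnants and the phosphoglycolate ends that bleomycin-type drugs such as phleomycin leave. Its level was 40.0 and 35.4 CPM in WT, 57.3 and 52.0 CPM in AM, and 43.2 and 31.6 CPM in 6WP libraries. The AM libraries were the highest, and the 6WP libraries lay on both sides of the WT libraries. TDP1 fell by 0.55 in 6WP against AM cells (SE 0.16, 95% interval -0.92 to -0.17, adjusted p = 0.0481), while the value against WT was -0.012 (95% interval -0.39 to 0.37, adjusted p = 0.977). For AM against WT cells it was 0.53 (95% interval 0.16 to 0.91, adjusted p = 0.0583), outside the threshold in the shared fit and past it (0.0343) with a replicate block. The fall against AM held under 7 of 15 alternatives, the same settings as for XRCC1, and was lost without either WT library (adjusted p = 0.0986 and 0.0890) or either AM library (0.251 and 0.164). Upper quartile scaling (0.0777), library size only (0.0787), at least 10 counts in every library (0.0536) and only the 2 groups compared (0.0919) lost it too.

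The promoters of the genes that fell against AM are shown because these 3 genes moved in 1 direction there. Each is the 250 bases before the RefSeq start site on GRCh38.p14, written 5′ to 3′ on the gene's strand, with matches to GGGCGG (the GC box) and CCAAT on either strand in capitals. All 3 starts lie inside the annotated spans given for these genes.
PARP1 (chr1:226408094-226408343, minus strand): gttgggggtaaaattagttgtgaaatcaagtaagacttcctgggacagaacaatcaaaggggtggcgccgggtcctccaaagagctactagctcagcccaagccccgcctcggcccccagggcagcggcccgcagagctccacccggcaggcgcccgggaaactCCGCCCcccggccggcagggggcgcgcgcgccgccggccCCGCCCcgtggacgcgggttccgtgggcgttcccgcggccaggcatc
XRCC1 (chr19:43575528-43575777, minus strand): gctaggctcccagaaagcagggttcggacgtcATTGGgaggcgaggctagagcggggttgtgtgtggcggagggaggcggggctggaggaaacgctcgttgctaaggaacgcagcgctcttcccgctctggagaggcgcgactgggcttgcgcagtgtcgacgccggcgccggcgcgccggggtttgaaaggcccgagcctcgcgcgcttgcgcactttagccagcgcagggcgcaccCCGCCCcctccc
TDP1 (chr14:89955677-89955926, plus strand): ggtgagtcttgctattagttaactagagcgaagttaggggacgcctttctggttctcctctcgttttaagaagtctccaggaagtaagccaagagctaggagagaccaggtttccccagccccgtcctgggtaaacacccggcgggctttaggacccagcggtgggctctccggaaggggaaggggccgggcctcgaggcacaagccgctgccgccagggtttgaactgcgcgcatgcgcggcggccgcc
PARP1 held 2 GC boxes, 86 and 47 bases before the start, XRCC1 held 1 GC box at 12 bases and 1 CCAAT match at 218 bases, all on the reverse strand, and TDP1 held neither. The GC content was 70.4% in PARP1, 70.0% in XRCC1 and 61.6% in TDP1. Of the 8 genes with a RefSeq promoter entry, 6 held GGGCGG (42.6% of all 35116 promoters), 5 held CCAAT (32.0%), and 0 held TTTNNCGC, an E2F-type motif (5.92%), each counted on both strands. A gene was counted if any of its promoter entries matched, while the percentages count entries, so the 2 measures are not alike. No marked match overlaps another, and a match is a description of letters, not a bound site.

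APTX (chr9:32886601-33025130, minus strand) removes the adenylate that a failed ligation leaves on a break. Its level was 93.6 and 82.6 CPM in WT, 103.9 and 100.3 CPM in AM, and 88.9 and 96.9 CPM in 6WP libraries. AM was highest again, by less than for TDP1, and WT and 6WP overlapped. The log2 fold changes were 0.076 against WT (95% interval -0.18 to 0.34), -0.14 against AM (95% interval -0.40 to 0.12) and 0.21 in AM against WT (95% interval -0.048 to 0.47), with adjusted p = 0.738, 0.408 and 0.217.

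POLB (chr8:42338454-42371808, plus strand), the polymerase that fills the short-patch gap, had 40.7 and 38.0 CPM in WT, 41.8 and 44.2 CPM in AM, and 52.3 and 37.7 CPM in 6WP libraries. The 6WP libraries held both the highest and the lowest of the 6 values. Its log2 fold change was 0.19 against WT (95% interval -0.18 to 0.56, adjusted p = 0.519) and 0.066 against AM (95% interval -0.30 to 0.44, adjusted p = 0.793). Without 6WP replicate 2 the value against WT was 0.38 (adjusted p = 0.0181), and without 6WP replicate 1 it was -0.080 (adjusted p = 0.650), so leaving out 1 library turned its sign.

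APEX1 (chr14:20455191-20457772, plus strand) is the endonuclease that cuts at the empty site after base removal. Its level was 272 and 259.7 CPM in WT, 239 and 264 CPM in AM, and 253 and 277 CPM in 6WP libraries. All 3 groups overlapped. The log2 fold change against WT was -0.0062 with a 95% interval of -0.26 to 0.24 (adjusted p = 0.983), and against AM it was 0.075 with an interval of -0.18 to 0.33 (adjusted p = 0.648), so changes past 1.5-fold lay outside both intervals.

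The glycosylases act together on oxidised guanine, OGG1 by removing it and MUTYH by removing the adenine mispaired with it. OGG1 (chr3:9749944-9788219, plus strand) had 16.3 and 14.6 CPM in WT, 23.1 and 23.0 CPM in AM, and 18.2 and 10.7 CPM in 6WP libraries. The AM libraries agreed closely and were the highest, while the 6WP libraries lay on either side of WT. Its log2 fold change was -0.67 against AM (SE 0.23, 95% interval -1.20 to -0.15, adjusted p = 0.0702), outside the threshold. It passed under 6 of 15 alternatives, namely DESeq2's Wald test (0.0264), the likelihood ratio test (0.0294), no filter (0.0333), the replicate block (0.0411) and without 6WP replicate 1 (-1.11) or 2 (-0.37, adjusted p = 0.0427). Between AM and WT cells it was 0.58 (95% interval 0.048 to 1.11, adjusted p = 0.116). Against WT it was -0.097 (95% interval -0.63 to 0.44, adjusted p = 0.847), which became -0.54 without 6WP replicate 1 (adjusted p = 0.0143) and 0.21 without 6WP replicate 2 (adjusted p = 0.296).

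MUTYH (chr1:45329163-45340893, minus strand) stood at 17.7 and 18.6 CPM in WT, 17.7 and 19.8 CPM in AM, and 30.4 and 19.2 CPM in 6WP libraries. A single library, 6WP replicate 1, stood above the other 5. The log2 fold change was 0.45 against WT (SE 0.21, 95% interval -0.037 to 0.94, adjusted p = 0.256) and 0.40 against AM (95% interval -0.078 to 0.89, adjusted p = 0.198). Without 6WP replicate 2 it was 0.72 against WT (adjusted p = 0.000683), and without 6WP replicate 1 it was 0.068 (adjusted p = 0.760).

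**Figure D2:**
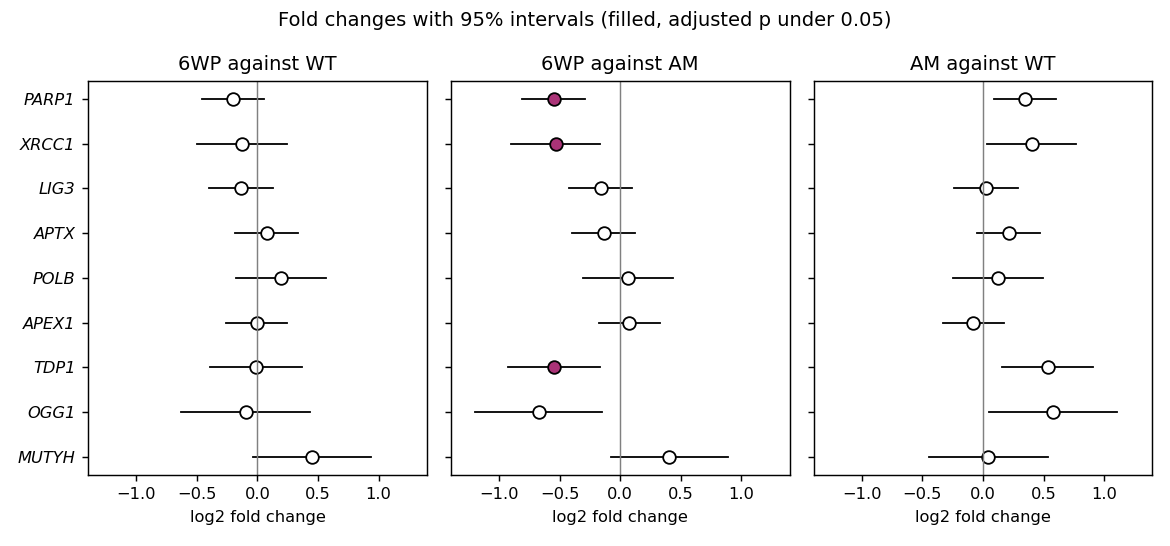
Log2 fold change of each gene (points) with its 95% interval from the edgeR fit (lines, filled points for an adjusted p under 0.05) for 6WP cells (against WT and against AM) and for AM against WT. Intervals of PARP1, XRCC1, TDP1 and OGG1 lie below 0 against AM, those of PARP1, XRCC1, TDP1 and OGG1 lie above 0 for AM against WT, and those of all 9 genes include 0 for 6WP against WT.

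The intervals give the size of a change against WT under 1 spread shared by all 3 groups. The 6WP libraries stood further apart than the others, so these intervals may be too narrow for comparisons with 6WP. A fit to only the 2 groups compared called 96 genes and not 440 in 6WP against WT, and 6620 and not 2593 in AM against WT. For 7 of the 9, all but OGG1 and MUTYH, the 95% interval lay within a 1.5-fold change either way, where 42.4% of all tested genes had such an interval. For AM against WT, the log2 fold changes not given above were 0.026 for LIG3 (95% interval -0.24 to 0.29), 0.13 for POLB (-0.25 to 0.50), -0.081 for APEX1 (-0.33 to 0.17) and 0.045 for MUTYH (-0.44 to 0.53), with adjusted p = 0.887, 0.606, 0.624 and 0.897. A p-value above the threshold does not by itself show equal levels, and for OGG1 and MUTYH a change past 1.5-fold remained within the interval. In 5 of the 9 genes (PARP1, XRCC1, APTX, TDP1 and OGG1) both AM libraries lay above all 4 others, against 21.7% of all tested genes. The median log2 fold change of the 9 genes was -0.012 against WT and -0.16 against AM in 6WP cells, and 0.21 for AM against WT, beside 0.013, 0.048 and -0.0023 over all tested genes. Summed over the 9 genes, the level was 1536 and 1493 CPM in WT, 1803 and 1826 CPM in AM, and 1350.3 and 1439 CPM in 6WP libraries, a sum that is mostly PARP1.

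Levels between genes can be compared only per length. Per kilobase of all annotated exons joined, WT cells held 141 CPM of APEX1 and 52.5 CPM of PARP1, then 9.72 CPM of XRCC1, 9.59 of POLB, 6.06 of TDP1, 5.64 of APTX, 4.47 of LIG3, 3.13 of MUTYH and 1.77 of OGG1. Neighbours XRCC1 and POLB did not differ beyond their spread. Joined exons of PARP1 cover 18399 bases, its Ensembl canonical transcript only 3978. With canonical transcripts, an alternative chosen after seeing the data, PARP1 had 243 ± 2.82 CPM per kilobase (SD, n = 2) and APEX1 183 ± 6.09, followed by APTX at 44.6 ± 3.93 and POLB at 30.5 ± 1.47. XRCC1 followed at 13.0 ± 0.965, then MUTYH at 10.6 ± 0.365, TDP1 at 10.1 ± 0.871, OGG1 at 9.47 ± 0.752 and LIG3 at 6.88 ± 0.120. The libraries of MUTYH and TDP1 overlapped, as did those of TDP1 and OGG1. PARP1 and APEX1 were the top pair with either length, in opposite order, and the glycosylases OGG1 and MUTYH were among the lower genes.

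**Figure D3:**
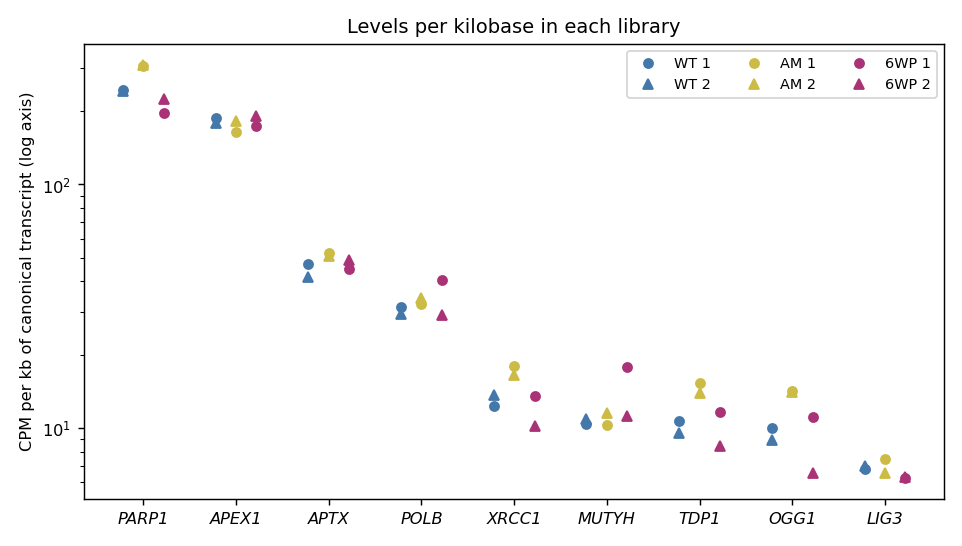
Level of each gene in CPM per kilobase of its Ensembl canonical transcript (log axis) in the WT, AM and 6WP libraries, 1 point for each library. PARP1 and APEX1 lie far above the others (WT means 243 and 183 CPM per kilobase), and LIG3 is lowest in all 3 groups.

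The rest of the pathway was read from 4 further lists with 33 genes, all of them tested, which hold other glycosylases, other end-processing enzymes, poly(ADP-ribose) enzymes and long-patch factors. In 6WP against WT cells 1 of the 33 rose (PARP3) and 0 fell, with 8 at an unadjusted p under 0.05 and a median log2 fold change of -0.065. Of the 14672 tested genes, 1.63% rose, 1.37% fell and 3283 had such a p. DESeq2's Wald test and edgeR's likelihood ratio test called 5 each, beside 1124 and 1492 of all tested genes. In 6WP against AM cells 12 fell and 3 rose (median -0.36), where 9.68% and 11.7% of all tested genes did. In AM against WT cells 9 rose and 0 fell (median 0.37), where 7.74% and 9.93% of all tested genes did. In 20 of the 33 both AM libraries lay above all others, where 21.7% of all tested genes did. In 3 both lay below, and the share of all tested genes with both below is not given here. Leaving out single libraries moved these counts. Fewer of the 33 were called in 6WP against AM and in AM against WT cells without any 1 of the WT or AM libraries. More were called in 6WP against WT and in AM against WT cells without either 6WP library. Both moves were also seen over all tested genes.

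Within poly(ADP-ribose) metabolism, PARP2 makes the same chains as PARP1, and PARP3 is a smaller relative that marks breaks with single ADP-ribose units. PARP3 had 10.8 and 13.0 CPM in WT, 11.8 and 12.2 CPM in AM, and 20.2 and 21.5 CPM in 6WP libraries. Both 6WP libraries stood above the other 4. PARP3 rose in 6WP cells by 0.81 on the log2 scale against WT (SE 0.15, adjusted p = 0.0358) and by 0.80 against AM (SE 0.15, adjusted p = 0.0117). The call against WT was lost without either WT library (adjusted p = 0.406 and 0.225) or either AM library (0.113 and 0.114) and with only the 2 groups compared (0.116), and the call against AM was lost without either AM library (0.108 and 0.0966). PARP2 had 29.4 and 29.4 CPM in WT, 45.6 and 53.4 CPM in AM, and 30.3 and 17.9 CPM in 6WP libraries. It fell against AM by 1.04 (SE 0.22, adjusted p = 0.0176) and had a log2 fold change of -0.29 against WT (adjusted p = 0.486). That fall was lost without WT replicate 1 (0.0505) or either AM library (0.0906 and 0.131).

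PARP3 counts per PARP1 count were 0.0111 and 0.0136 in WT, 0.00963 and 0.00993 in AM, and 0.0257 and 0.0241 in 6WP libraries. The 6WP ratios lay above all others (exact permutation test, two-sided, p = 0.333, the smallest that 2 against 2 libraries allow). PARP2 counts per PARP1 count were 0.0302 and 0.0307 in WT, 0.0374 and 0.0433 in AM, and 0.0386 and 0.0201 in 6WP libraries, where the 6WP values lay on either side of WT and overlapped AM. Of the enzymes that remove ADP-ribose, PARG, which degrades the chains, fell by 0.40 against AM (adjusted p = 0.0404 by edgeR, named after its value was seen). This call held under 7 of 15 alternatives and was lost without any 1 of the WT and AM libraries (0.0934 to 0.235), with the replicate block (0.0533), no filter (0.0548), upper quartile scaling (0.0820) and only the 2 groups compared (0.0931). OARD1, which removes the last unit, rose by 0.62 in AM against WT (SE 0.12, adjusted p = 0.0133), and lost that call without any 1 of the 4 WT and AM libraries (0.111 to 0.129). In the whole poly(ADP-ribose) list of 7 genes, 1 rose and 0 fell against WT in 6WP cells, 1 rose and 2 fell against AM, and for AM against WT 1 rose and 0 fell. Of all tested genes, 1.63% rose and 1.37% fell in the first of these comparisons. In the second 11.7% rose and 9.68% fell, and in the third 7.74% and 9.93%.

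**Figure D4:**
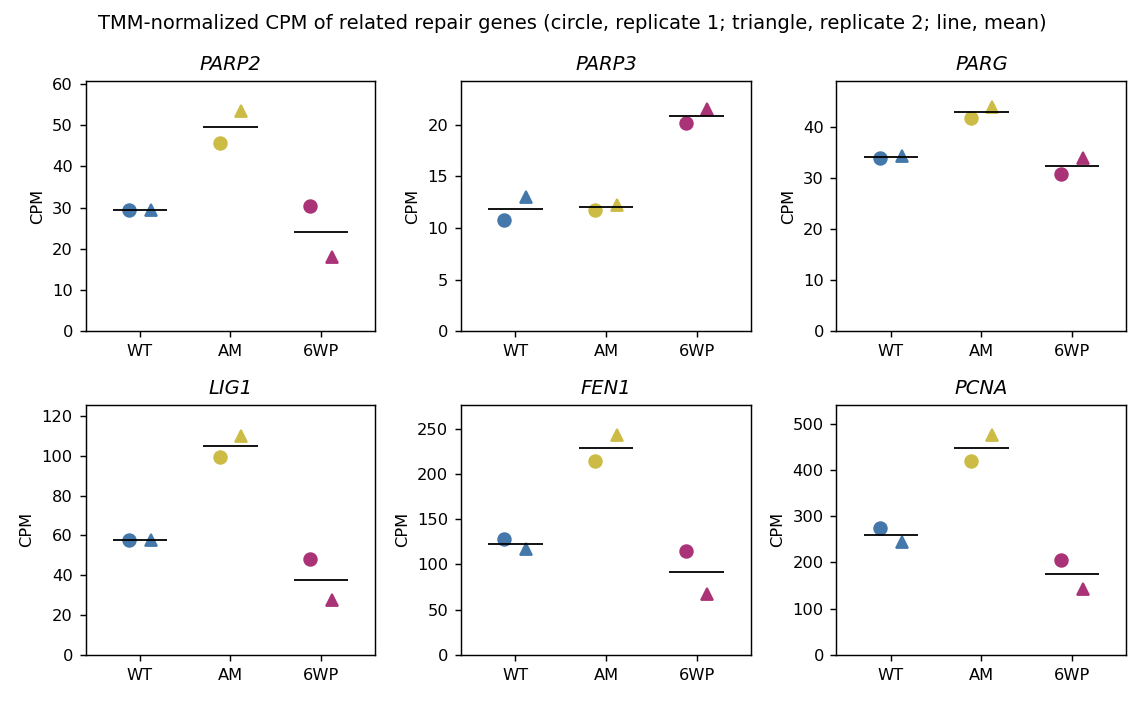
Level in CPM (TMM normalized, linear axis from 0) of PARP2, PARP3, PARG, LIG1, FEN1 and PCNA in the 2 WT, 2 AM and 2 6WP libraries, with points for libraries and lines for group means. PARP3 is highest in both 6WP libraries (20.2 and 21.5 CPM), and LIG1, FEN1 and PCNA are highest in both AM libraries.

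Long-patch genes had medians farther from 0 than the 9 genes, a difference that was not tested. Of the 12 genes, 8 fell and 1, POLD4, rose in 6WP against AM cells (median -0.72), beside 9.68% and 11.7% of all tested genes. In AM against WT cells 7 rose and 0 fell (median 0.53), beside 7.74% and 9.93% of all tested genes. In 6WP against WT cells 0 were called (median -0.22). There 3 had an unadjusted p under 0.05, beside 3283 of the 14672 tested genes. LIG1, the replicative ligase, had 57.6 and 57.9 CPM in WT, 99.3 and 110.1 CPM in AM, and 48.0 and 27.6 CPM in 6WP libraries. It fell against AM by 1.47 (SE 0.23, adjusted p = 0.00651 by edgeR) and rose in AM against WT by 0.86 (adjusted p = 0.0360), with -0.61 for 6WP against WT (adjusted p = 0.167). The rise was lost with upper quartile scaling (0.0502) and library size only (0.0574). It was also lost without any 1 of the WT and AM libraries, with values of 0.77 to 0.92. PCNA, the sliding clamp, fell against AM by 1.36 (adjusted p = 0.00397), and FEN1, the flap nuclease, by 1.32 (adjusted p = 0.00834). Between AM and WT cells PCNA rose by 0.78 (adjusted p = 0.0221) and FEN1 by 0.90 (adjusted p = 0.0304). Both of these calls were lost without any 1 of the WT and AM libraries. The values were then 0.68 to 0.87 for PCNA and 0.79 to 0.98 for FEN1. Among the clamp loader subunits, RFC2 fell by 1.05 (adjusted p = 0.00546) and RFC5 by 1.00 (adjusted p = 0.00397) against AM. POLD3, a subunit of the replicative polymerase delta, fell by 0.65 against AM (adjusted p = 0.0114), while its partner POLD4 rose by 0.72 (adjusted p = 0.0226). RFC2 and POLD3 lost their calls against AM without either AM library, and RFC5 without AM replicate 2. Without AM replicate 2 the values of RFC2, POLD3 and RFC5 were -1.12, -0.56 and -0.90. The falls of LIG1 (adjusted p = 0.0625 and 0.0678) and FEN1 (0.0687 and 0.0794) were lost without AM replicate 1 and 2, and that of PCNA without AM replicate 2 (0.0585). The rise of POLD4 was lost without any 1 of the WT and AM libraries (0.0608 to 0.161) and with only the 2 groups compared.

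The ligases of the short and long patch can be set against each other within a library, which removes scaling. LIG1 counts per LIG3 count were 1.01 and 0.991 in WT, 1.58 and 2.01 in AM, and 0.919 and 0.524 in 6WP libraries. No groups overlapped, with AM highest and 6WP lowest, and each comparison gave the smallest p possible for this design (exact permutation test, two-sided, p = 0.333). The proliferation list followed the same order of groups, and its part in this ratio was not tested.

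**Figure D5:**
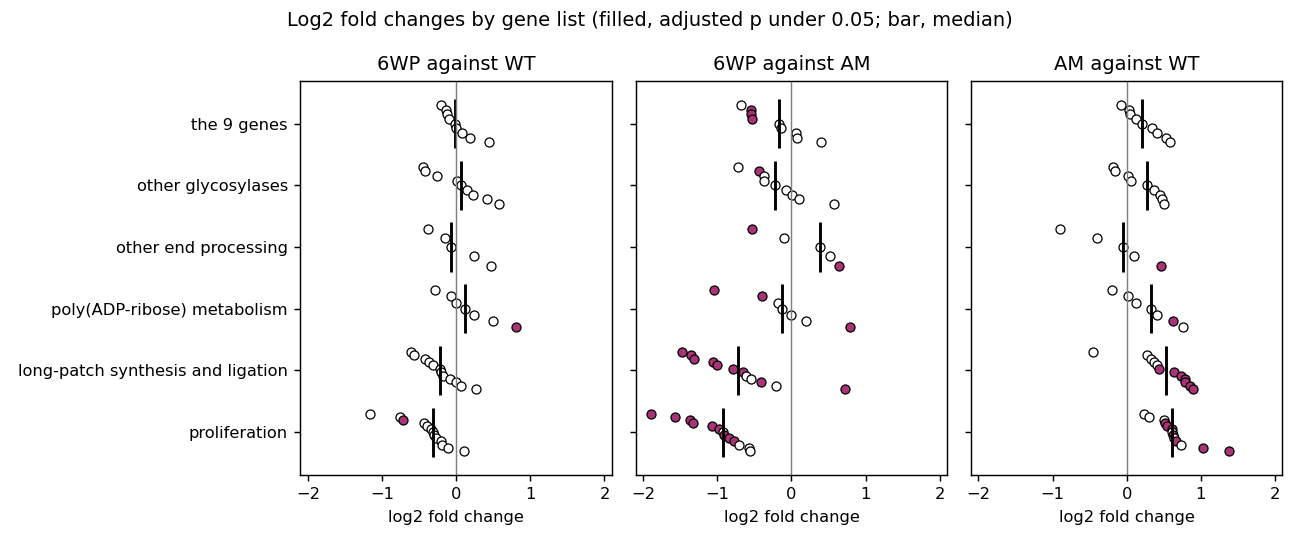
Log2 fold changes of single genes (points, filled for an adjusted p under 0.05) and list medians (bars) for the 9 genes, the other repair lists and proliferation in the 3 comparisons. In 6WP against AM cells the medians were -0.16 for the 9 genes, -0.72 for the long-patch list and -0.92 for the proliferation list.

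Among the other glycosylases (9 genes), 0 were called in 6WP against WT and in AM against WT. There 2 and 4 had an unadjusted p under 0.05, beside 3283 and 5185 of the 14672 tested genes. In 6WP against AM 1 fell, beside 9.68% of all tested genes. This gene, UNG, the uracil glycosylase, was named after its value was seen, and fell by 0.43 (adjusted p = 0.0250), a call lost without any 1 of the WT and AM libraries (0.0662 to 0.191) and with only the 2 groups compared (0.0669). Its level was 316 and 296 CPM in WT, 297 and 319 CPM in AM, and 221 and 236 CPM in 6WP libraries, so both 6WP libraries were lowest, and its value against WT was -0.42 (adjusted p = 0.0735). Among the 5 other end-processing genes, POLL, a gap-filling polymerase related to POLB, rose by 0.64 in 6WP against AM cells (SE 0.12, adjusted p = 0.0129) and lost that call without either AM library (0.102 and 0.116). APEX2, the relative of APEX1, fell by 0.53 there (adjusted p = 0.0232) and rose by 0.47 in AM against WT cells (adjusted p = 0.0400), and was named after its values were seen. The fall was lost without any 1 of the WT and AM libraries (0.0610 to 0.156) and with only the 2 groups compared (0.0620), and the rise without any 1 of them (0.188 to 0.249), with the replicate block (0.0510), library size only (0.0777) and upper quartile scaling (0.0733). In 6WP against WT cells 0 of these 5 were called, with 1 at an unadjusted p under 0.05.

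PARP enzymes consume NAD+, so 8 genes of NAD+ synthesis were read as well, of which 7 were tested and QPRT was at 0. NAPRT1, which starts NAD+ synthesis from nicotinic acid, rose by 0.79 in 6WP against WT cells (adjusted p = 0.0413), a call lost without either WT library (0.426 and 0.225) or either AM library (0.0945 and 0.0954), with library size only (0.0506) and with only the 2 groups compared (0.0951). NMNAT2 and NMNAT3, named after their values were seen, join the nucleotide to adenylate, and rose against AM by 1.01 (adjusted p = 0.0281) and 0.95 (adjusted p = 0.0231). NMNAT3 fell by 0.87 in AM against WT cells (adjusted p = 0.0363). Leaving out any 1 of the WT and AM libraries ended the calls of NMNAT2 (0.0697 to 0.188) and NMNAT3 (0.0650 to 0.148) against AM and of NMNAT3 in AM against WT cells (0.168 to 0.216), and the fit to only the 2 groups compared ended those against AM (0.0730 and 0.0657). Without 6WP replicate 2 the value of NMNAT2 against AM was 0.47. The other 4 genes of this list were called in no comparison. Of all tested genes, 1.63% rose in 6WP against WT cells, 11.7% rose against AM and 9.93% fell in AM against WT.

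Several of the 9 genes share DNA with neighbours, which limits how their reads can be assigned. The kit kept strand, but the strand setting of the counting is not given in the sources used here, so reads from opposite-strand overlaps cannot be told apart. LIG3 overlaps exons of RFFL over 3754 bases and of CCT6B over 180 bases, OGG1 those of CAMK1 over 2175 and TADA3 over 356 bases, MUTYH those of TOE1 over 491 bases and APEX1 those of TMEM55B over 92 bases. A transcript model on the same strand shares 1838 bases with MUTYH and another shares 224 bases with XRCC1. APTX shares 338 bases with the pseudogene TCEA1P4 and 212 with LAGE3P1 on its own strand, and 1227 with ASS1P12 on the other. The values of MUTYH, XRCC1 and APTX are uncertain to that extent. Of the genes that start within 1000 bases on the other strand, DNAJA1, a chaperone 143 bases from APTX, fell by 0.71 in 6WP against AM cells (adjusted p = 0.0238), where APTX had -0.14. The call was lost without any 1 of the WT and AM libraries (0.0591 to 0.141) and with only the 2 groups compared (0.0616), and the value was -0.47 without 6WP replicate 1. OSGEP beside APEX1, EFCAB11 beside TDP1, CCT6B beside LIG3 and TOE1 beside MUTYH were called in no comparison. Among the exon-sharing genes, TADA3 rose by 0.44 in AM against WT cells (adjusted p = 0.0440), where OGG1 had 0.58. That call was lost without any 1 of the WT and AM libraries (0.127 to 0.336), with at least 10 counts in every library, with library size only (0.0744), upper quartile scaling (0.0769) and the replicate block (0.0610).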

How the data were processed

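RNA was sequenced as 100 bp single end reads from 2 libraries each of WT, AM and 6WP cells, with a TruSeq stranded kit per the labels. The authors deposited whole-number counts for each gene symbol, not scaled. The submitters' processing notes name STAR 2.5.3a, featureCounts 1.5.3, StringTie 1.3.3, edgeR 3.22.3, R 3.5.0 and hg38. The annotation and the strand setting are not given in the sources used here. The table had 0 columns without a sample.

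From these counts, edgeR 4.0.16 in R 4.3.3 (with limma 3.58.1 and DESeq2 1.42.0) kept 14672 genes by filterByExpr, computed TMM factors and fitted a quasi-likelihood model without covariates to all 6 libraries. The 3 comparisons were two-sided, with Benjamini-Hochberg adjustment over the tested genes (threshold 0.05). The common dispersion was 0.0173. Library totals were 21222201 to 35311945 counts, and intervals rest on 2 libraries per group. On counts simulated for 6WP against WT (14485 genes), 78 of 89 genes changed by 1 on the log2 scale were called. So were 111 of 111 changed by 2, with 4 others. Smaller changes were not simulated, and the 9 genes had log2 fold changes of -0.20 to 0.45 in this comparison. The wider spread of the 6WP libraries (median SD 0.196, beside 0.0854 in WT) was not simulated either. The recovery therefore does not give the power for the 9 genes.

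The 9 genes and all lists (4 repair lists, NAD+ synthesis, proliferation, prostate luminal markers, other cell type markers) were chosen with earlier results of these data known, and no list was tested as a set. Part of the prostate luminal list is not reported here. Genes to be named were the 9, the 20 called genes of the repair, NAD+ and proliferation lists with the smallest p, and genes that overlap the 9 or start within 1000 bases on the opposite strand. Of the proliferation genes among these 20, only MCM4 is named, and the others enter the counts of their list. Genes outside this rule are said to be named after their values were seen. Gene positions came from GENCODE on GRCh38, which matched 23272 of the 29804 symbols. Promoters came from RefSeq. The 15 alternatives were other scalings, filters and tests, only the 2 groups compared, a replicate block and each library left out. Same-numbered libraries did not deviate together (r = 0.0395 for WT and AM, 0.0873 for WT and 6WP, -0.0206 for AM and 6WP), so no pairing was used.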

Additional observations from a re-analysis of the deposited data

How the results depend on the processing

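With 2 libraries a group, single libraries decided many calls. A fit without 1 library assumes that the lone sample varies like the others. Without 1 library, the calls among the 9 genes ranged from 0 to 3 in 6WP against WT (3 without 6WP replicate 2, for MUTYH, POLB and PARP1, and 1, OGG1, without 6WP replicate 1), from 0 to 5 in 6WP against AM (5 without 6WP replicate 2, 0 without WT replicate 1 or either AM library, 1 without WT replicate 2) and from 0 to 4 in AM against WT cells (4 without either 6WP library). The calls among the 33 other repair genes ranged from 0 to 15, from 0 to 22 and from 0 to 24 in the same order (15 and 22 without 6WP replicate 1, 24 without 6WP replicate 1). In 6WP against AM cells, upper quartile scaling, library size only and at least 10 counts in every library each left 1 call among the 9 (PARP1), and a fit to only the 2 groups compared left 0. That fit left 9 of the 33 there, beside 1309 of the 14436 genes it tested. In 6WP against WT cells that fit left 0 of the 33, beside 96 of 14533. In AM against WT cells it called 4 of the 9 and 24 of the 33, beside 6620 of the 14228 genes it tested. In 6WP against WT cells DESeq2's Wald test and the likelihood ratio test called 5 of the 33 each. In AM against WT cells 1 of the 9 was called without a filter, 2 with DESeq2's Wald test, 1 with the likelihood ratio test and 1 with the replicate block (TDP1). The replicate block called 4 of the 9 in 6WP against AM (OGG1 added) and 0 in 6WP against WT cells. The labels give no pairing beyond the shared number.

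Of the recomputed fold changes of the 9 genes, 340 kept direction and side of the threshold, 28 passed it newly, 20 no longer passed it and 17 changed sign, all of the last in values that were not called. In AM against WT cells LIG3 became -0.064 with upper quartile scaling and -0.032 with library size only, and MUTYH -0.048 and -0.017. With 1 library left out, the log2 fold changes in 6WP against WT cells ranged from -0.36 to 0.037 (XRCC1), -0.014 to 0.17 (APTX), -0.080 to 0.38 (POLB), -0.098 to 0.041 (APEX1), -0.27 to 0.17 (TDP1) and -0.54 to 0.21 (OGG1). They ranged from -0.19 to 0.25 (POLB) and -0.023 to 0.15 (APEX1) in 6WP against AM cells, and from -0.084 to 0.11 (LIG3) and -0.054 to 0.11 (MUTYH) in AM against WT cells.

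Over all tested genes, 440 were called against WT and 3131 against AM in 6WP cells, and 2593 for AM against WT, and these counts ranged from 0 to 3870, 116 to 6807 and 67 to 6654 over the alternatives. In 6WP against AM cells 1711 genes were higher and 1420 lower, but 2276 and 1062 with upper quartile scaling. In AM against WT cells 1136 were higher and 1457 lower, but 689 and 1832 with upper quartile scaling and 729 and 1664 with library size only. The cause was not tested in any of these cases. Among the 9 genes the lowest count was 304, for OGG1 in a 6WP library, and whether depth limited any call was not tested.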
